A study of Mus musculus with 20 samples.

Results

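The phase II conjugation enzymes described here are the UDP-glucuronosyltransferases (Ugt1a, Ugt2 and Ugt3), the soluble glutathione S-transferases (Gsta, Gstk, Gstm, Gsto, Gstp and Gstt) and the sulfotransferases (Sult). They were taken by symbol from the protein-coding autosomal genes of the RefSeq table for GRCm38.p6, the assembly that corresponds to mm10, which gave 63 of 20665 genes. Acetylation of histone H3 on lysine 27 (H3K27ac), found at promoters and enhancers in use, had been mapped by chromatin immunoprecipitation and sequencing in hepatocytes isolated by perfusion of the liver. The 5 young libraries came from C57BL/6N mice aged 5 months and the 5 old libraries from C57BL/6J mice aged 23 months, so age and substrain cannot be told apart. The labels name no transgene, treatment or sex. Whether the 5 libraries of an age stem from 5 different mice is not stated either, and the p-values then reflect only how far these samples vary, which may be technical. Human chromatin had been added at 5% as a spike-in per the labels, which was not used here. For each gene, the regions called within its annotated span extended by 5 kb on both sides were collected, and their scaled tags (reads per region, which the authors had brought to a common total of 10000000 tags), their called length and their number were summed in each library.

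These enzymes attach a polar group to drugs, hormones, bilirubin and reactive by-products of metabolism, which makes them easier to excrete in bile and urine. Glucuronosyltransferases transfer glucuronic acid, glutathione S-transferases join glutathione to electrophiles, and sulfotransferases transfer a sulfonate group. The liver is a main site of their expression, and many respond to nuclear receptors that sense foreign compounds, to the oxidative stress factor NRF2 and to sex-dependent growth hormone signals.

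The 10 lists held 21213 to 30195 regions per library, from 6295930 to 15544145 tags. The share of tags inside called regions (IP efficiency, per the file headers) was 34.63 to 48.23% in the young and 24.53 to 35.84% in the old libraries. Young 5 stood apart with a fragment length of 620 bp, against 414 to 444 bp in the others, and was the deepest library. All 9 hepatocyte markers found among the autosomal genes had regions in all 10 libraries, with 40.7 tags per kb of called length at Alb, the albumin gene. Among markers of other liver cells, no region was called in any library at 6 of 8 Kupffer cell and macrophage genes (Adgre1 and Clec4f among them), 6 of 8 stellate cell genes, 4 of 6 cholangiocyte genes (Krt19, Epcam) and 5 of 7 lymphocyte genes (Cd3e, Ptprc). Called in all 10 libraries were Cd68 of the macrophage list at 117.2 tags per kb of called length, Sox9 of the cholangiocyte list at 101.7 and Nkg7 of the lymphocyte list at 123.5. Each lay above the level at Alb and below that at Apoa1. The extended spans can also take in regions of neighbouring genes, which was not examined for these markers. Of 8 endothelial genes, Kdr had no region and Stab2 and Gpr182 had one in all 10 libraries, and the summed tags of this list were 487.6 to 664.4 in young and 156.5 to 673.2 in old libraries. In bulk samples, fewer cells of a type and less signal per cell cannot be told apart.

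Regions were called at 42 of the 63 genes in all 10 libraries, or 66.7%, against 45.7% of all genes (9450 of 20665). The 42 include all 9 Ugt1a genes, whose spans overlap and share most of their regions. No library had a region over the starts of Ugt1a10, Ugt1a8 and Ugt1a2. At 15 genes no library had a region (23.8%, against 34.5% of all genes), and at 6 the call was made in some libraries. The uncalled genes were nearly all sulfotransferases: Sult2a1, Sult2a2, Sult2a3, Sult2a4, Sult2a5, Sult2a6 and Sult2a7, which belong to the hydroxysteroid and bile acid sulfotransferases, and Sult2b1, Sult1c1, Sult3a1, Sult3a2, Sult4a1 and Sult6b2. The remaining 2 were Gstt4 and Ugt2b38. The absence of a call says that no region passed the authors' threshold, not that the gene carried no acetylation. No member gene was called in at least 3 more libraries of one age than of the other, which held for 1.19% of all genes with a call. Sult2a8 was the only one of the 8 Sult2a genes with regions, and it had them in every library. Near-identical copies such as the Sult2a, Ugt2b, Gsta and Gstp genes share sequence, and how reads that match several copies were handled is not given in the sources used here, so single copies are uncertain.

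**Figure D1:**
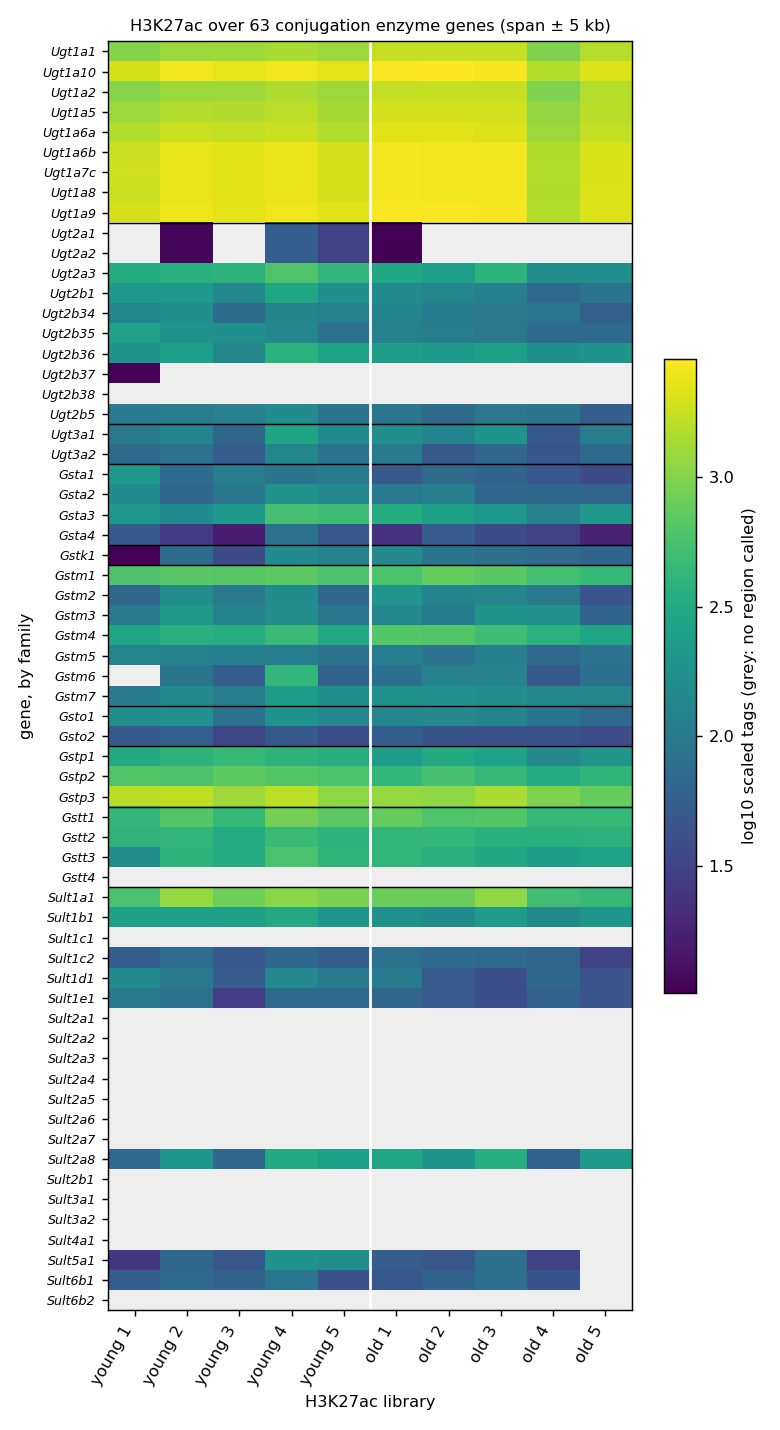
Scaled H3K27ac tags (log10 colour scale) summed over each of the 63 genes (rows, grouped by family) in each of the 10 libraries (columns, young left of the white line and old right of it), with grey where no region was called. The Ugt1a genes form the brightest block and share most of their regions, and the Sult2a genes other than Sult2a8 are grey in all 10 libraries.

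The genes called in every library carried fewer tags per kb of called length than the typical gene, with a median over the 42 of 54.0 against 82.9 over all 9450 genes called in every library. On this per-length level Ugt1a1 stood at 238.6 tags per kb, Gstm1 at 92.5, Gstt2 at 75.4 and Gstp3 at 74.4, and the lowest was Ugt2b34 at 30.7. The extended spans of the members held 121 distinct regions, of which 42 were called in all 10 libraries and 30 in a single library. Of the 42 constant regions 29 overlapped a promoter window of a member in the RefSeq table, which has no window for 8 members, and 4 lay within 1 kb of an end of another gene (Ddt, Sgf29, Slx1b or Bola2).

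Age differences are given as log2 of old over young on scaled tags plus 1, each library being centred on the median of all genes or regions tested. Without centring, the median of all genes was shifted by −0.34 in the old libraries and that of all regions by −0.31, so the differences are relative to the typical gene. In the limma fit of the gene tag sums, 21 of 9450 genes passed an adjusted p of 0.05 (0.222%), and none of the 42 conjugation enzyme genes did. The lowest adjusted p (Benjamini-Hochberg) among them was 0.056, at Gstm4. At an unadjusted p under 0.05 there were 14, where 13.8% of all genes lay, and 9 of these 14 were the overlapping Ugt1a genes that share most of their regions. The alternative count tests called 1 of the 42 genes with edgeR and 6 with DESeq2, where they called 0.508% and 3.06% of all genes. The difference was above 0 at 24 genes and below 0 at 18, with a median of 0.21 against 0 over all genes. It ranged from −0.69 at Gsta1 to 0.95 at Gstk1. All 9 overlapping Ugt1a genes were among the 24, so this count and median weigh 1 locus 9 times. Without centring the difference was above 0 at 14 genes, 8 of them Ugt1a genes, and below 0 at 28. Its median was then −0.13 against −0.34 over all genes, of which 13.7% were above 0. Over all genes, the 5th and 95th percentiles of the centred difference were −0.43 and 0.64. On tags per kb of called length it was above 0 at 32 of the 42 genes, against 53% of all genes. The medians were 0.15 and 0.01, and the 32 again held all 9 Ugt1a genes. The called length itself differed past the threshold at 0.0106% of genes, again none of them a member, and 17 of the 42 genes had a difference in length above 0, against 52.7% of all genes, with medians of −0.05 and 0.02. At an unadjusted p under 0.05 there were 4 members for length, where 9.66% of all genes lay. Of the 42 single regions called in every library, 20 had a difference above 0 and 22 below, with a median of −0.01, and 8 had an unadjusted p under 0.05, where 17.2% of all regions did.

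**Figure D2:**
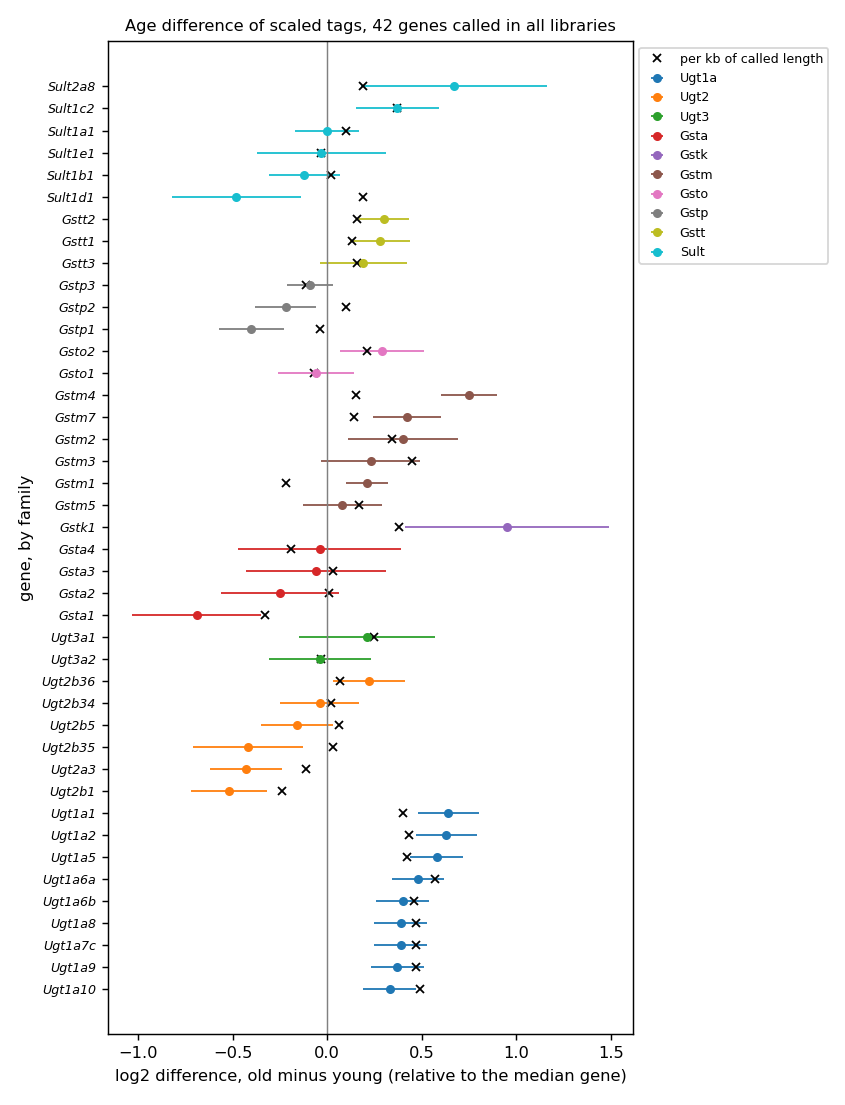
Log2 difference in scaled tags (old minus young, relative to the median gene; point, with bars of 1 standard error from limma, 5 libraries per age) of the 42 genes called in all libraries, coloured by family, and the same difference per kb of called length (cross). The Ugt1a genes lie between 0.33 and 0.64, and Gstm4 moves from 0.75 to 0.15 once the called length is divided out.

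The Ugt1a locus on chromosome 1 encodes the enzymes of the first UGT family as alternative first exons joined to shared downstream exons. Ugt1a1, whose product conjugates bilirubin, lies last in the row, and its span overlaps those of the other 8 genes. The sequences that follow are the 250 bases before the annotated start of 3 Ugt1a genes, from the RefSeq promoter table (GRCm38.p6, plus strand, 5′ to 3′). They are shown because all 3 hold a match to the site of the liver factor HNF1 while their calls differed. Capitals mark the match to the HNF1 site (GTTAAT, any base, then ATT), which lies on the opposite strand. Their positions are chr1:88211709-88211958 for Ugt1a1, chr1:88070529-88070778 for Ugt1a9 and chr1:88055161-88055410 for Ugt1a10.
Ugt1a1: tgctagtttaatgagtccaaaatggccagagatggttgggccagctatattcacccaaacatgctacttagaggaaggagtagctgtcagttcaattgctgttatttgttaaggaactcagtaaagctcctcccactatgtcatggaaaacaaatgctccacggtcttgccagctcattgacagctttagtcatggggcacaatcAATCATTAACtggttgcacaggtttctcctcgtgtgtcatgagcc
Ugt1a9: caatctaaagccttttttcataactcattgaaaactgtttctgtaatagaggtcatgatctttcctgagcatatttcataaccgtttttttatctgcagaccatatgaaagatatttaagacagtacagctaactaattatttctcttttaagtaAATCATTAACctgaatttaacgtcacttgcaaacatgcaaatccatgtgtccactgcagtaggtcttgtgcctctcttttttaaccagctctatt
Ugt1a10: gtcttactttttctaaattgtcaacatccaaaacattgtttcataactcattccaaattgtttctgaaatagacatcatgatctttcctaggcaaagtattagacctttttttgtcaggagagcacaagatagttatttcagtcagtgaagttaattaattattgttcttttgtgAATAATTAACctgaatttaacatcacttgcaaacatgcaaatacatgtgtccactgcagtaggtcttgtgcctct
The match ends 36 bases before the start of Ugt1a1, 86 before that of Ugt1a9 and 66 before that of Ugt1a10. The promoter window of Ugt1a1 was covered by a region in all 10 libraries, that of Ugt1a9 in 5 young and 4 old libraries, and that of Ugt1a10 in none.

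The region over the start of Ugt1a1 (chr1:88209433-88215447) held the most tags in the locus. It held 877.0, 1239.9, 1022.3, 1391.5 and 1230.0 scaled tags in young 1 to 5 and 1550.4, 1560.3, 1578.9, 913.0 and 1266.7 in old 1 to 5. Old 1, 2 and 3 lay above every young library, while old 4 lay below 4 of the 5 young ones, so the ages overlapped. The means were 1152.1 ± 202.2 and 1373.9 ± 288.0 (SD, n = 5 each), a difference of 0.54 ± 0.14 (SE) relative to the median region with a limma adjusted p of 0.0795, which did not pass. It was also 0.54 per kb of called length, and 0.24 without centring (adjusted p = 0.364).

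Upstream in the locus, 4 of the other 5 regions called in every library had centred differences at or below 0. The region with the next most tags (chr1:88101440-88110592), which holds the annotated first base of Ugt1a6b, had 466.9 ± 57.5 tags in young and 384.2 ± 81.2 in old libraries, a centred difference of 0.00. The regions at the starts of Ugt1a9 and Ugt1a5 had −0.32 and −0.12, and a region next to the start of Ugt1a6a, an enzyme for planar phenols, had −0.18. A region between Ugt1a5 and Ugt1a2 (chr1:88177680-88181340) had 72.4 ± 22.1 and 85.4 ± 18.6 tags and a difference of 0.56 (limma adjusted p = 0.25). Downstream of the shared last exon, a region within 1 kb of an end of Mroh2a (chr1:88223474-88226315) was called in 2 young and 5 old libraries, with 104.2 and 132.1 tags in young 1 and 3 and 158.8, 183.3, 138.3, 42.9 and 183.5 in old 1 to 5. Among all 121 regions of the members, 5 (4.13%) were called in at least 3 more libraries of one age, close to the 4.06% of all merged regions. Of these, 4 had more young and 1 had more old libraries, where 3% and 1.05% of all merged regions did.

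Summed over the span, the 9 Ugt1a genes had differences from 0.33 at Ugt1a10 to 0.64 at Ugt1a1, with standard errors of 0.14 to 0.16 and limma adjusted p from 0.0919 (Ugt1a5) to 0.347 (Ugt1a10). These are not 9 separate observations, since the spans overlap and share most of their regions. Ugt1a1 had 1225.3 ± 138.2 tags in young and 1533.4 ± 336.5 in old libraries, and Ugt1a10 2360.6 ± 250.6 and 2400.2 ± 584.4. Both sums take in the region near the end of Mroh2a, with means of 47.3 ± 65.5 and 141.4 ± 58.2 tags. They are therefore not of the Ugt1a genes alone, and the start region of Ugt1a1 by itself had 0.54. Old 4, with an IP efficiency of 29.49%, was the lowest library of the locus at 1504.0 tags. Old 5, with a lower efficiency of 24.53%, held 2109.4 tags. With IP efficiency as a covariate the difference at Ugt1a1 was 0.47 (limma adjusted p = 0.378). DESeq2 alone placed Ugt1a1, Ugt1a2, Ugt1a5, Ugt1a6a and Ugt1a7c past the threshold.

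**Figure D3:**
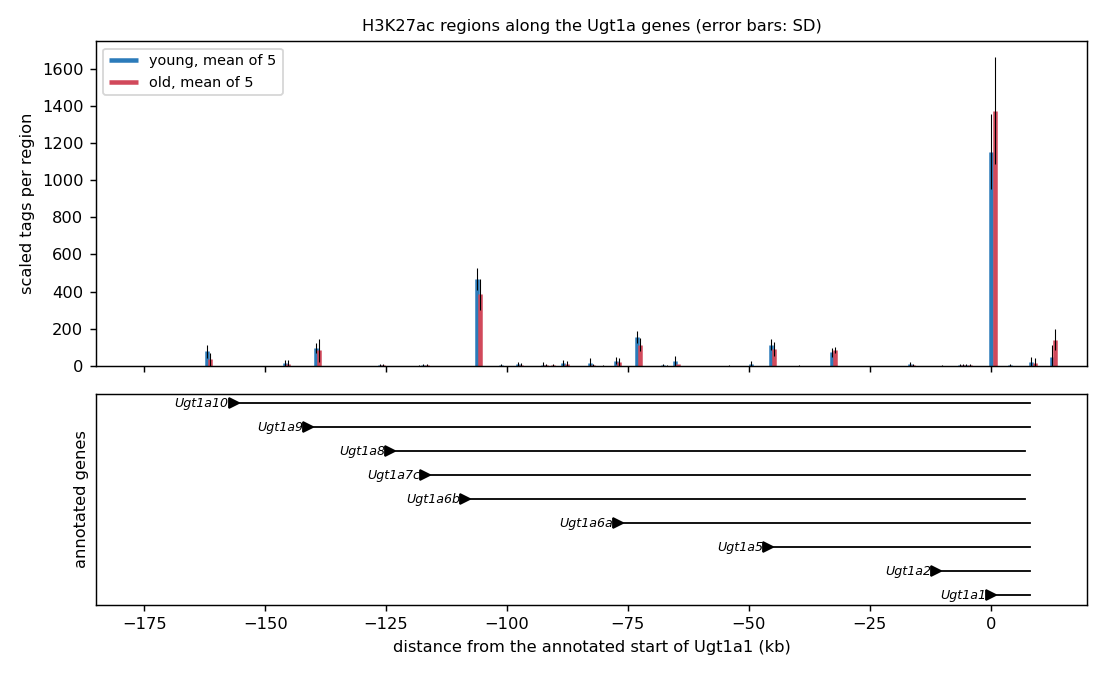
Mean scaled H3K27ac tags per region (upper panel, bars with SD over 5 libraries, young blue and old red drawn side by side) against the distance in kb from the annotated start of Ugt1a1, with the annotated spans of the 9 overlapping Ugt1a genes (lower panel, arrowheads at the starts). The region at 0 kb holds 1152.1 and 1373.9 tags, and the one near the start of Ugt1a6b 466.9 and 384.2.

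The Ugt2 genes on chromosome 5 encode enzymes for steroids, bile acids and drugs, and 6 of the 10 had regions in all libraries. Ugt2b1 held 200.4, 213.7, 140.3, 281.6 and 173.4 tags in the region over its start (chr5:86923378-86928545) in young 1 to 5, and 155.5, 136.6, 115.1, 69.5 and 89.0 in old 1 to 5. Only old 1 reached into the young range. The difference was −0.55 ± 0.19 (SE; limma adjusted p = 0.168), and −0.28 per kb. Ugt2a3, with the highest level per length of the family at 47.0 tags per kb, had 226.0 ± 40.8 and 138.4 ± 46.9 tags (SD, n = 5 each) over its start and a difference of −0.46 (limma adjusted p = 0.232). Of the other genes, Ugt2b35, Ugt2b5 and Ugt2b34 had sums with differences of −0.42, −0.16 and −0.04, and Ugt2b36 had 0.22. None of the 6 passed the test. Per kb of called length Ugt2b35, Ugt2b5, Ugt2b34 and Ugt2b36 had 0.02 to 0.07, and Ugt2b1 and Ugt2a3 had −0.24 and −0.11.

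Ugt2a1 and Ugt2a2, which are known from olfactory tissue, shared 1 region that was called in 3 young and 1 old library at 10.6 to 54.5 tags, and Ugt2b37 had a call of 10.8 tags in young 1. The Ugt3 enzymes, which use other sugars than glucuronic acid, are encoded on chromosome 15. Ugt3a1 had 145.8 ± 81.0 tags in young and 129.3 ± 53.3 in old libraries, and Ugt3a2 87.0 ± 30.2 and 66.4 ± 21.8. Their differences of 0.21 and −0.04 were smaller than the SE of 0.36 and 0.27.

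The mu class (Gstm) of the glutathione S-transferases, a cluster of detoxifying enzymes on chromosome 3, had centred differences above 0 at all 6 genes called in every library, and at 3 of the 6 without centring. The start region of Gstm4 was the single member region to pass the threshold, where 1.07% of all 12550 regions called in every library passed in either direction and 0.534% with higher values in old. The 250 bases before its start (GRCm38.p6, chr3:108044860-108045109, minus strand, 5′ to 3′) lie inside that region and are shown for that reason. None of the 5 motifs searched below was found in them.
Gstm4: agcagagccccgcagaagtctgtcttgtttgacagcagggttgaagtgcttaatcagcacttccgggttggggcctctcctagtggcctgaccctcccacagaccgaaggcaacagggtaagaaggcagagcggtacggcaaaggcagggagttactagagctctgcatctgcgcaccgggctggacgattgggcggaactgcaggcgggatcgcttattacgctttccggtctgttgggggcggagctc
The region (chr3:108040212-108046320) held 238.4, 321.4, 292.9, 376.8 and 277.3 scaled tags in young 1 to 5 and 454.6, 409.2, 410.6, 305.4 and 251.0 in old 1 to 5. Old 1, 2 and 3 lay above every young library, and old 4 and 5, the libraries with the lowest IP efficiency, lay within the young range. After centring the ages did not overlap, with 7.89 to 8.20 in young and 8.45 to 8.83 in old libraries on the log2 scale. Gstm4 and a region in Gstm3 were the 2 of 42 member regions without overlap, against 5.28% of all regions.

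The start region of Gstm4 rose from 301.4 ± 51.7 to 366.2 ± 84.6 tags (SD, n = 5 each), 1.22-fold before centring and by 0.56 ± 0.11 (SE) on the centred log2 scale (limma adjusted p = 0.0425). The call was lost without centring (0.26, adjusted p = 0.353), with the replicate number as a block (adjusted p = 0.0979), per kb of called length (0.24, adjusted p = 0.399), and on leaving out any one library except young 1 (adjusted p = 0.055 to 0.0972). The called length of the region was 4481 ± 963 bp in young and 5067 ± 783 bp in old libraries. Over the whole extended span Gstm4 had 353.3 ± 70.2 and 484.2 ± 155.6 tags, a difference of 0.75 ± 0.15 (SE; limma adjusted p = 0.056) with 6244 and 8670 bp called. It was the 1 gene of the 42 whose centred sums did not overlap, where 3.95% of all genes showed none and 2.01% were higher in old.

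The other mu class genes had smaller differences. Gstm1, with the highest level per length of the class at 92.5 tags per kb, had 642.9 ± 52.8 tags in young and 597.5 ± 122.9 in old libraries and 0.21 (limma adjusted p = 0.402), which turned to −0.13 without centring and −0.22 per kb. Gstm7 had 0.42, Gstm2 0.40, Gstm3 0.23 and Gstm5 0.08, none past the threshold, and without centring Gstm3 and Gstm5 had −0.11 and −0.26. The region inside Gstm3 (chr3:107963480-107967238) had 74.9 ± 11.4 and 94.4 ± 19.8 tags and a difference of 0.61 ± 0.20 (SE; limma adjusted p = 0.147). Gstm6 was not called in young 1 and held 423.4 tags in young 4, against 49.8 to 123.9 in the remaining 8 libraries. In young 4 this sum took in the region over the start of Gstm7, with 238.3 tags. The region at a promoter window of Gstm6 (chr3:107939016-107944160) held 171.3 tags in that library.

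The alpha class (Gsta) conjugates lipid peroxidation products, and Gsta1 had the lowest difference of all 42 genes. The 250 bases before its start (GRCm38.p6, chr9:78230419-78230668, plus strand, 5′ to 3′) are shown with a match to the STAT site TTCNNNGAA, the motif of growth hormone and cytokine signals, in capitals.
Gsta1: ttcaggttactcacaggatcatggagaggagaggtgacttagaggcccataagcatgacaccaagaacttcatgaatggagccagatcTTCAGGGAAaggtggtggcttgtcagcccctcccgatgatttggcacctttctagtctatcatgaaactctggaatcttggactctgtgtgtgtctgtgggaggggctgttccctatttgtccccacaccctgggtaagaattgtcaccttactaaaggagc
The region around this start (chr9:78228430-78231037) held 190.8, 73.1, 98.1, 88.6 and 102.3 tags in young 1 to 5 and 37.2, 47.7, 62.9, 46.7 and 38.1 in old 1 to 5. Every young library lay above every old one on scaled tags, as at 2 of the 42 member regions and 8.3% of all regions. After centring the ages overlapped, and the difference was −0.88 ± 0.31 (SE; limma adjusted p = 0.171), or −1.18 without centring, where it passed (limma adjusted p = 0.0401). The called length was 2244 ± 320 bp in young and 1448 ± 451 bp in old libraries, and per kb the difference was −0.34. Without young 1, the highest library, it was −0.64, and that of the gene sum went from −0.69 to −0.40. On scaled gene sums Gsta1 and Gstp2 were the 2 of 42 genes whose ages did not overlap, where 9.3% of all genes showed none and 9.22% were higher in young. The Gstp2 sum includes the start region of Gstp1, described below. The sums of Gsta2, Gsta3 and Gsta4 had differences of −0.25, −0.06 and −0.04, each below its standard error of 0.31 to 0.43.

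The pi class (Gstp) on chromosome 19 includes Gstp1 and the near-identical Gstp2, whose extended spans share a region. The 250 bases before Gstp1 (GRCm38.p6, chr19:4037913-4038162, minus strand, 5′ to 3′) are shown with the core GCGTG of the xenobiotic response element in capitals.
Gstp1: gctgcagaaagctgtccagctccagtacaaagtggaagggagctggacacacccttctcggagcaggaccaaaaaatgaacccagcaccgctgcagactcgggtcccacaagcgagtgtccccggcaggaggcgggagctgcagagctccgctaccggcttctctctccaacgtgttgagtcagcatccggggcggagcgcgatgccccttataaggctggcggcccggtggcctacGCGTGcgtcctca
The region there (chr19:4032019-4038880) held 310.8, 393.3, 447.5, 378.1 and 327.1 tags in young 1 to 5 and 241.9, 304.1, 267.3, 145.8 and 192.1 in old 1 to 5. This was the other member region where every old library lay below every young one on scaled tags, old 2 narrowly so. Centred values overlapped, and the difference was −0.43 ± 0.17 (SE; limma adjusted p = 0.217), −0.09 per kb, and −0.72 without centring (limma adjusted p = 0.0486). The called length was 6003 ± 566 bp in young and 4497 ± 1372 bp in old libraries. Gstp3 had 1441.8 ± 246.8 and 1080.1 ± 233.7 tags, nearly all in 1 wide region (chr19:4054096-4075973) with a difference of −0.12. The annotated span of Gstp3 is 2136 bp, and the called length averaged 17597 bp in young and 16164 bp in old libraries. Much of this sum therefore lies outside the gene. Gstp2 had 628.1 ± 50.4 and 430.6 ± 77.9 tags and −0.22, which became 0.10 per kb.

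The theta class genes (Gstt) on chromosome 10, whose enzymes act on small halogenated compounds, had 0.28 at Gstt1, 0.30 at Gstt2 and 0.19 at Gstt3. Gstt1 had 613.9 ± 192.7 and 579.0 ± 138.8 tags, and its difference was −0.06 without centring, where Gstt2 and Gstt3 had −0.04 and −0.15. The upstream region of Gstt3 within 1 kb of an end of Ddt, a tautomerase gene, had 0.02. The omega class genes Gsto1 and Gsto2 shared a region between them and had −0.06 and 0.29. Gstk1, the kappa class enzyme of mitochondria and peroxisomes, had the highest difference, 0.95 ± 0.54 (SE; limma adjusted p = 0.461). Its sums were 10.2, 74.9, 38.1, 144.4 and 122.9 tags in young 1 to 5 and 144.9, 89.4, 81.7, 70.0 and 62.7 in old 1 to 5. Young 1 held the fewest tags, the ages overlapped, and without young 1 the difference was 0.43. The 10.2 tags of young 1 came from a region past the gene (chr6:42251820-42252805). The region over the start of Gstk1 (chr6:42245544-42247239) was not called in that library.

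**Figure D4:**
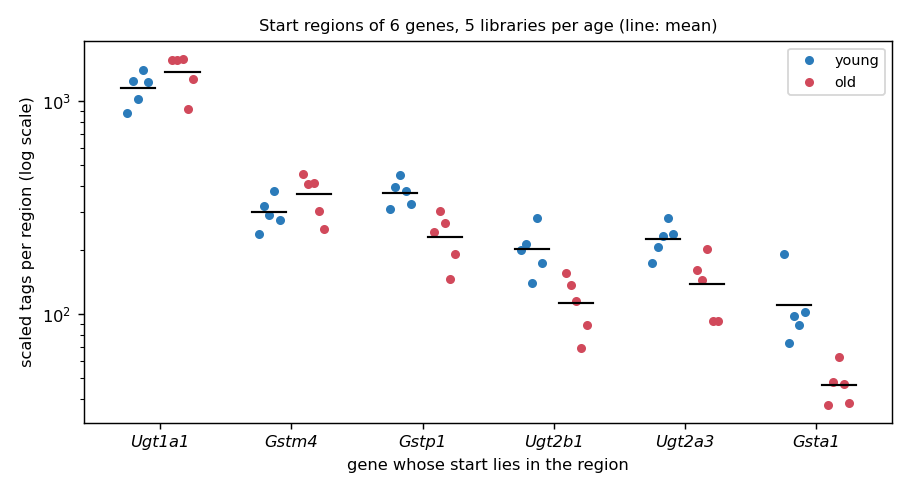
Scaled H3K27ac tags (log axis) in the region over the annotated start of 6 genes, with 1 point per library (young blue, old red, 5 each) and a line at the group mean. Old libraries lie below all young ones at Gstp1 and Gsta1, and the ages overlap at Ugt1a1, Gstm4, Ugt2b1 and Ugt2a3.

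Among the 21 sulfotransferase genes 6 had regions in all libraries. Sult1a1, the phenol sulfotransferase, had 905.0 ± 231.9 tags in young and 731.8 ± 264.3 in old libraries and a centred difference of 0.00 (limma adjusted p = 0.997). All 3 of its regions called in every library lay within 1 kb of an end of Sgf29, Slx1b or Bola2, so its sum is not its own alone. Sult1c2 had 0.37, Sult1b1, a thyroid hormone sulfotransferase, −0.12, and Sult1e1, the estrogen sulfotransferase, −0.03. The only region counted for Sult1e1 (chr5:87572413-87574368) lay outside its annotated span and was also counted for Sult1d1. No library had a region over the promoter window of Sult1e1. Sult2a8 had 179.9 ± 108.7 and 218.7 ± 108.7 tags and 0.67 ± 0.49 (SE; limma adjusted p = 0.559). Sult5a1 and Sult6b1 were called in 5 young libraries and 4 old ones, without a call in old 5, the shallowest library. The one region of Sult6b1 lay within 1 kb of an end of Eif2ak2, an interferon-induced kinase gene.

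Sult1d1, a catecholamine sulfotransferase, had the lowest difference of its family at −0.48 ± 0.34 (SE; limma adjusted p = 0.548), and 0.19 per kb. The 250 bases before its start (GRCm38.p6, chr5:87569007-87569256, minus strand, 5′ to 3′) are shown because they hold the HNF1 match, in capitals, and because calls at this start differed in number between ages.
Sult1d1: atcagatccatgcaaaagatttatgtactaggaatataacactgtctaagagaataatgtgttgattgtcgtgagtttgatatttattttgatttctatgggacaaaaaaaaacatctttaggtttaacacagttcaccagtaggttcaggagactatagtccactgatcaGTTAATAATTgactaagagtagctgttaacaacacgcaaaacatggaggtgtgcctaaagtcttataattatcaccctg
The region there (chr5:87566924-87569386) held 47.6, 12.1, 24.5, 70.2 and 37.3 tags in young 1 to 5, and 42.5 and 9.5 in old 1 and 4, with no call in old 2, 3 and 5. Of all merged regions, 3% were called in at least 3 more young libraries. The promoter window itself was covered by a region in 4 young and 2 old libraries. A link between the HNF1 match and these calls was not tested. A neighbouring region shared with Sult1e1 was called in all 10 libraries.

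Summed by family with each region counted once, the mu class was the one whose centred sums did not overlap between ages. Of all single genes, 3.95% showed no overlap after centring, and no such share was computed for family sums. The scaled sums of the mu class were 1283.0, 1802.8, 1515.3, 2009.8 and 1368.4 tags in young 1 to 5 and 1940.5, 1803.4, 1891.3, 1430.2 and 1143.7 in old 1 to 5. These overlapped, and the centred difference was 0.37, with all 6 genes called in every library above 0 (3 of the 6 without centring). The other families had centred differences of 0.33 (Ugt1a), 0.25 (Gstt), 0.13 (Ugt3), 0.01 (Sult), −0.06 (Gsto), −0.10 (Gstp, or −0.54 with spans extended by 1 kb), −0.24 (Gsta), −0.27 (Ugt2) and 0.95 (Gstk, 1 gene). All 63 genes together had 11315.4 ± 1771.7 tags in 84.2 ± 3.19 regions in young and 9733.2 ± 2061.0 tags in 80.4 ± 8.91 regions in old libraries, a ratio of 0.86 in scaled tags and a centred difference of 0.11. The covered length was 198471 ± 26009 bp in young and 172796 ± 30489 bp in old libraries, and the level per length was 57.1 ± 5.18 and 56.2 ± 5.88 tags per kb. Family sums were not tested, since the families were chosen with results of these data known.

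**Figure D5:**
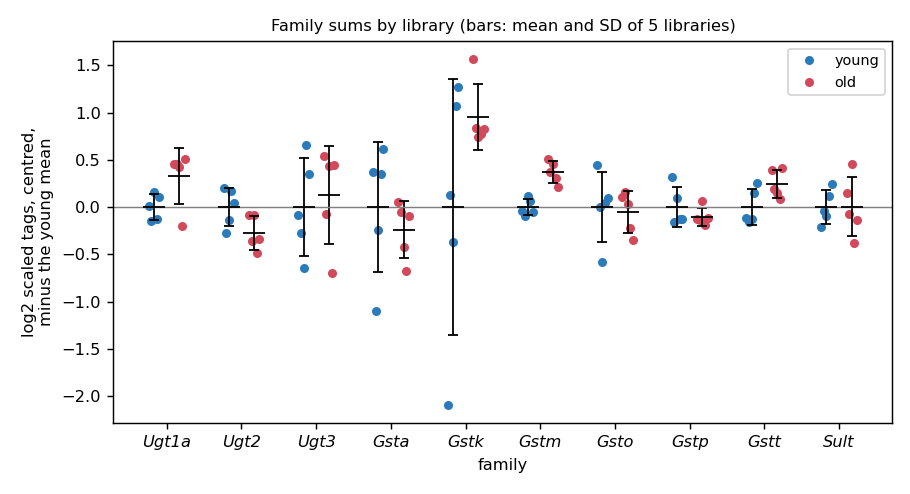
Family sums of scaled tags on the log2 scale, each library centred on the median gene and shown relative to the young mean (1 point per library, bars with mean and SD of 5 libraries). The old Gstm values all lie above the young ones, while the other 9 families overlap. Of all single genes, 3.95% showed no overlap after centring.

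Promoter windows from 250 bases before to 50 after the start were found in the RefSeq table for 55 of the 63 genes, and both strands were searched for 5 motifs. The HNF1 site (GTTAAT, any base, then ATT) occurred at 8 genes (14.5%), against 0.399% of all 32851 windows: Ugt1a1, Ugt1a9, Ugt1a10, Sult1d1 and the near-copies Sult2a3, Sult2a4, Sult2a5 and Sult2a6. Of these only Ugt1a1 had a region over its window in all 10 libraries, and the 4 Sult2a windows had none. The antioxidant response element core TGACNNNGC occurred at 3 genes, Gsta3, Gstm5 and Gstm7 (5.45%, against 12.4%), and at Gstm5 it contained the GCGTG core on the other strand. That core occurred at 11 genes (20%, against 32.4%), the STAT site TTCNNNGAA at 4 (7.27%, against 8.3%) and the TATA box TATAAA at 14 (25.5%, against 13.6%). A match describes the letters in the window and not a bound site, and paralogous windows share ancestry, so they do not count separately. Of the 55 genes 20 had a region over the window in all 10 libraries, 17 in some and 18 in none.

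Genes that supply, control or export conjugates were read from the same fit, and none passed the threshold. The genes named from these lists were chosen after their values were seen. Of 3 genes for UDP-glucuronate, the donor of the glucuronosyltransferases, Ugdh had 0.01, Slc35d1 0.04 and Ugp2 −0.08. Of 6 measured genes listed under glutathione supply 2 had differences above 0 and 4 below. This list includes Chac2, whose product breaks glutathione down. Gclc, the catalytic subunit of the rate-limiting ligase, had −0.11. Among 15 regulators 6 were above 0 and 9 below with a median of −0.02. The lowest was Rxra, the shared partner of xenobiotic nuclear receptors, with 3073.2 ± 1085.1 and 1568.0 ± 332.9 tags and −0.60 (limma adjusted p = 0.125), which was 0.01 per kb. Ahr and Hnf4a had −0.47 and −0.46, while the pregnane X receptor gene Nr1i2 had −0.01, the constitutive androstane receptor gene Nr1i3 −0.17 and the NRF2 gene Nfe2l2 −0.13. All 4 measured efflux transporter genes were below 0 with a median of −0.23, among them Abcc2 at −0.31 and Abcc3 at −0.41. Per kb of called length 2 of the 4 were above 0, with 0.12 at Abcc2 and −0.07 at Abcc3. The 9 hepatocyte marker genes were below 0 as well, with a median of −0.36, or −0.06 per kb, where 3 of the 9 were above 0. Their summed tags were 7899.4 to 12519.4 in young and 4589.5 to 8176.8 in old libraries. The part of this general difference in the values of the conjugation genes was not tested.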

How the data were processed

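H3K27ac region lists of 10 hepatocyte libraries (5 young, 5 old) were analysed. The 10 input samples had no separate file analysed here, and the input enters only through the lists.

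Region calling by the authors used the histone style of HOMER, per the file headers, with every library set against its matched input: peaks of 500 bp at least 1000 bp apart were stitched into regions with 4-fold more tags than the input (Poisson p of 1e-04) and than the surrounding 10000 bp. Coordinates refer to mm10 according to the submitters' processing notes, and neither aligner nor HOMER version is given in the sources used here. For each region, the scaled tag value, a signal, is the tag number that the authors rescaled to a total of 10000000. The unscaled tags deposited by the authors are an expected count, since they come in fractions, and were rounded to whole numbers for the count tests. The score deposited by the authors was used only to rank regions. The fold over input is a ratio given by the authors, used here only as their filter. The region length deposited by the authors (an other unit) is in bp.

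Regions overlapping a gene span (RefSeq, GRCm38.p6) extended by 5000 bp were summed per library. Genes with a call in all 10 libraries (9450) and regions merged at 1 bp overlap and called in all 10 (12550 of 46762) were tested with limma 3.58.1 on log2 of scaled tags plus 1, centred per library on the median, with a mean-dependent prior and Benjamini-Hochberg adjustment over all features at 0.05. These fold changes understate the change of weak features. Because each library has its own region borders, sums depend on how much was called, and tags per kb are given beside them. edgeR 4.0.16 (quasi-likelihood) and DESeq2 1.42.0 served as alternatives, run in R 4.3.3. The limma step was tested on simulated data for the gene tag sums (9450 genes, 5 libraries per age): it recovered 69% of 100 genes changed 2-fold and 90% of 100 changed 3-fold, with 10 false calls. Tables and plots were made with Python 3.11.15, numpy 2.4.6, pandas 2.3.3 and matplotlib 3.10.9.

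The members, families and gene lists were chosen with earlier results of these data known. A member was named by rule if it passed a threshold, had no overlap between ages, had the highest mean tags of its family, was among the 10 with the largest absolute difference, or had no call in any library. Other members are named after their values were seen. Of the symbols matching the rule, 2 were left out as not protein-coding or not autosomal.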

Additional observations from a re-analysis of the deposited data

Results flagged for a closer look

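Among 62 groups of 5 libraries checked for a value far from the others, 1 stood out: Gsta1 held 207.2 scaled tags in young 1, while the other 4 young libraries held 73.1 to 109.0. The gap to the next library was 0.732 of the range of the group, above the limit of 0.71 for 5 samples. Chance alone marks about 1 in 20 groups.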

How the results depend on the processing

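Of 21 genes past the threshold on gene tag sums, the number became 135 without centring, 56 with cyclic loess, 9 on tags per kb, 11 with genes called in at least 1 library, 1 with lists of equal length, 48 with edgeR, 289 with DESeq2, 0 with IP efficiency as a covariate, and 2 to 65 on leaving out 1 library (2 without old 4, 65 without young 1). Of the member genes, 1 passed with cyclic loess, with spans extended by 1 kb and with edgeR (Gstm4 each time), and 6 with DESeq2. Gstm4 had 0.77, 0.66, 0.78 and 0.79 there, with adjusted p of 0.0489, 0.0377, 0.0483 and 0.000227, and its difference stayed between 0.15 (per kb) and 0.85 (covariate) over all alternatives. Leaving out 1 library never let a member pass (0 to 0). Genes past the threshold on called length were 0 without centring and 0 to 4 on leaving out 1 library. Regions past the threshold were 725 without centring, 40 per kb, and 30 to 246 on leaving out 1 library, and member regions among them were 2 without centring (Gstp1 and Gsta1), 0 per kb and 0 to 1. The cause of these changes was not tested.

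Of the 20 genes followed over all alternatives, the direction turned at 10 under at least 1 of them. Without centring Ugt1a10 had −0.01, Gstt1 −0.06, Ugt3a1 −0.13 and Gstm1 −0.13. Per kb, Gsta3 had 0.03, Gstp2 0.10, Gstm1 −0.22, Sult1d1 0.19 and Sult1a1 0.10. With spans extended by 1 kb Ugt3a1 had −0.22 and Sult1a1 0.11. Sult1a1, at 0.00, had 0.04 with cyclic loess, 0.03 with edgeR and DESeq2, and 0.19 with the covariate, where Gsto1 had 0.10. Of all 42 genes, 10 had another direction without centring and 10 per kb. On leaving out 1 library the ranges were −0.34 to 0.18 at Gsta3 (0.10, 0.18 and 0.13 without young 4, young 5 and old 4), −0.20 to 0.06 at Gsto1 (0.06 without young 1, 0.02 without old 5), −0.15 to 0.01 at Gstp3 and −0.13 to 0.08 at Sult1a1 (0.02, 0.03, 0.05 and 0.08 among them). The Gstp family sum moved from −0.10 to −0.54 with spans extended by 1 kb. Of 641 alternatives for named genes, regions and families, 591 kept direction and call.

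With the replicate number of the labels as a block, 4 genes passed on tag sums, 6 on called length and 74 regions, none of them a member: Gstm4 had an adjusted p of 0.146 and its start region 0.0979. Deviations of same-numbered libraries correlated by −0.036, 0.18, 0.133, −0.041 and −0.061. The same-numbered old library was the closest match for young 2 and young 3 and not for the others. Such weak correlations cannot show whether the numbers pair the libraries, and the main fit did not use the numbers. The smallest region called at a member held 7.1 to 13.5 scaled tags, depending on the library.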

Other observations

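Of 11 measured genes for methyl, acetyl and glycine conjugation, 5 had centred log2 differences above 0 and 6 below, with a median of −0.06. Of 5 measured genes listed as deconjugating enzymes 3 were above 0 and 2 below, with a median of 0.02. This list includes Ephx1 and Ephx2, whose products are epoxide hydrolases and do not remove conjugates. Nnmt, which methylates nicotinamide, had 379.8 ± 97.9 scaled tags at the young age and 218.0 ± 64.3 at the old age (SD over 5 libraries) and a difference of −0.48, which was 0.20 per kb of called length. The glycine conjugation genes Acsm1 and Acsm3 had −0.40 and −0.50, and −0.03 and −0.07 per kb. None of these 3 genes passed the limma threshold.

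Of the other glutathione transferases, the membrane-bound Mgst1 had 1140.8 ± 216.4 and 801.7 ± 147.8 tags and a difference of −0.17, and Gstz1, the maleylacetoacetate isomerase of tyrosine breakdown, had 0.12. Hpgds had no region in any library, and Mgst2 had one in 1 library. Among deconjugating enzymes, Arsa, a lysosomal sulfatase gene, had 0.34 and Gusb, the beta-glucuronidase gene, −0.56, neither past the threshold. The genes named here were chosen after their values were seen.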
